A study of Mus musculus with 24 samples.

Results

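The guanylate-binding proteins (GBPs) and immunity-related GTPases (IRGs) are 2 families of interferon-induced GTPases, and 10 of their genes were examined: the 6 GBP genes Gbp2, Gbp3, Gbp5, Gbp6, Gbp7 and Gbp9 and the 4 IRG genes Irgm1, Irgm2, Igtp and Iigp1. The members were given by name and matched by symbol and Ensembl identifier. All 10 had a row among the 55471 genes counted in batch 1 and 9 had a row among the 13915 genes counted in batch 2, where Iigp1 had none. The RNA came from EO771, a mouse mammary carcinoma cell line, in 4 derivatives. X2 was the retroviral vector control, and X2-PDPN was sorted from those control cells for podoplanin (PDPN) that they had gained on their own. CCR7 carried a cDNA of the chemokine receptor gene Ccr7 in a pLNCX2 vector with a tdTomato reporter and was sorted as PDPN-negative, and CCR7-PDPN carried the same cDNA and was sorted for high PDPN. The study also stained X2 tumours for tdTomato and compared its level between derivatives, so the reporter is not named here as a difference between groups. All 4 were selected with G418. The protocol describes sorted populations without clonal selection, whereas the design text of the series speaks of subclones. Each derivative has 4 technical replicate libraries per batch in which it was sequenced. The p-values below therefore measure the spread between libraries. X2, CCR7 and CCR7-PDPN were sequenced in batch 1, and X2, X2-PDPN and CCR7-PDPN in batch 2, giving 24 libraries of 22275468 to 35721027 counts.

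GBPs and IRGs are among the most strongly interferon-inducible genes of the mouse. GBPs assemble on pathogen-containing vacuoles and on bacterial membranes, where they help to open the vacuole and to engage caspases of the inflammasome, and several of them are anchored to membranes by a prenyl group. IRGs of the effector type, such as Iigp1, load onto vacuoles in the GTP-bound state, whereas the regulatory Irgm1, Irgm2 and Igtp (Irgm3) hold effectors inactive on the cell's own membranes. Transcription of both families is driven by interferon through DNA elements that include the interferon-stimulated response element (ISRE), which interferon regulatory factors bind, and the gamma-activated site (GAS).

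Of these genes, 9 lie in 4 places of the mouse genome (GRCm38). Gbp5 (ENSMUSG00000105504, chr3:142493978-142522344), Gbp7 (ENSMUSG00000040253, chr3:142530342-142550149), Gbp3 (ENSMUSG00000028268, chr3:142560026-142573209) and Gbp2 (ENSMUSG00000028270, chr3:142620602-142638008) form a cluster on the plus strand of chromosome 3. Gbp9 (ENSMUSG00000029298, chr5:105077630-105139539) and Gbp6 (ENSMUSG00000104713, chr5:105270702-105293698) lie on the minus strand of chromosome 5. Irgm1 (ENSMUSG00000046879, chr11:48861968-48871683, minus strand) stands apart from Igtp (ENSMUSG00000078853, chr11:58199556-58207591) and Irgm2 (ENSMUSG00000069874, chr11:58199618-58222782), whose plus-strand exons share 162 bases.

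RefSeq promoter windows of GRCm38.p6, which run from 250 bases before to 50 bases after a transcription start, were found for 7 of the 10 members, with 2 windows for Gbp3. Each of the 7 members held the ISRE core in a window. This core is a pair of GAAA repeats with any 2 bases between them (TTTC repeats when read on the other strand). It was found in 7 of the 8 member windows, against 3.44% of all 32851 windows. The palindromic GAS core TTCNNNGAA was found in 4 members (Gbp5, Gbp7, Igtp and Irgm2) and 4 of the 8 windows, against 8.30% of all windows. The members were chosen as interferon-induced genes, so these shares are not a test of that. The stretches below are shown because they carry these letters. They are written 5′ to 3′ on the strand of the gene, with matches to either core in capitals, and end at the last base before the start except for Gbp5, whose stretch ends 41 bases before it.
Gbp2, chr3:142620543-142620662, plus strand: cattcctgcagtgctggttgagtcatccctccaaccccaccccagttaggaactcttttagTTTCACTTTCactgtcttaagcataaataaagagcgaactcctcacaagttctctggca
Gbp3, chr3:142559924-142560043, plus strand: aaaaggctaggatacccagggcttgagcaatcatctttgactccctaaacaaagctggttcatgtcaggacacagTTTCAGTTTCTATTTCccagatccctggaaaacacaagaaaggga
Gbp7, chr3:142530216-142530335, plus strand: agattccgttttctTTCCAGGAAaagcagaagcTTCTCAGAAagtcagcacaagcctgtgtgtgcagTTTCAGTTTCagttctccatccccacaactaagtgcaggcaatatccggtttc
Gbp5, chr3:142496764-142496893, plus strand: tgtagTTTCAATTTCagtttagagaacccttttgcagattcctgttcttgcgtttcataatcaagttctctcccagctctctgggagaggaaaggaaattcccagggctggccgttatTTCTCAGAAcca
Irgm1, chr11:48871421-48871540, minus strand: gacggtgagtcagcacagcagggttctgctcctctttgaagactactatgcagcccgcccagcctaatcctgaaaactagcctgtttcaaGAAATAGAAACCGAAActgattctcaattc
Igtp, chr11:58199436-58199555, plus strand: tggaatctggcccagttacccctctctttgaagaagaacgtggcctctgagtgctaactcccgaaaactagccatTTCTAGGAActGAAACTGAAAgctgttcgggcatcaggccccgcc
Irgm2, chr11:58214857-58214976, plus strand: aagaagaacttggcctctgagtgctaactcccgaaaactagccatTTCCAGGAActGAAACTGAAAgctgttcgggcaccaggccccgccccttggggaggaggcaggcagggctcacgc

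In 6 of the 7 members the ISRE core lay within 64 bases of the start, and in Gbp5 it began 165 bases before it. Gbp3 and Irgm1 each held a pair of overlapping ISRE cores. Igtp and Irgm2 had the 2 cores in the same order and spacing, and their windows matched at 184 of 270 bases when shifted by 30. A match describes letters and not a bound factor. The windows of 3 members (Gbp6, Gbp9 and Iigp1) are not shown here.

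Levels are given in TPM (counts divided by exonic length and scaled to the same total in each library), so that members can be compared with each other. In X2 the members ranged from 15.8 to 0.116 TPM in batch 1. Irgm1 was highest at 15.8 ± 0.769 TPM (SD, n = 4) in batch 1 and 15.9 ± 0.800 TPM in batch 2. It was followed by Gbp3 (6.94 ± 1.07 and 6.64 ± 0.575 TPM) and Igtp (6.17 ± 0.609 and 5.76 ± 0.852 TPM), which did not differ from each other beyond their spread. Irgm2 (2.61 ± 0.585 and 2.47 ± 0.469 TPM) came next. Gbp2 (1.52 ± 0.135 and 1.84 ± 0.506 TPM) and Gbp7 (1.45 ± 0.230 and 1.42 ± 0.277 TPM) overlapped with each other. The remaining 4 members, Gbp9, Gbp5, Gbp6 and Iigp1 stayed below 1 TPM in every group and are given as read counts below.

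**Figure D1:**
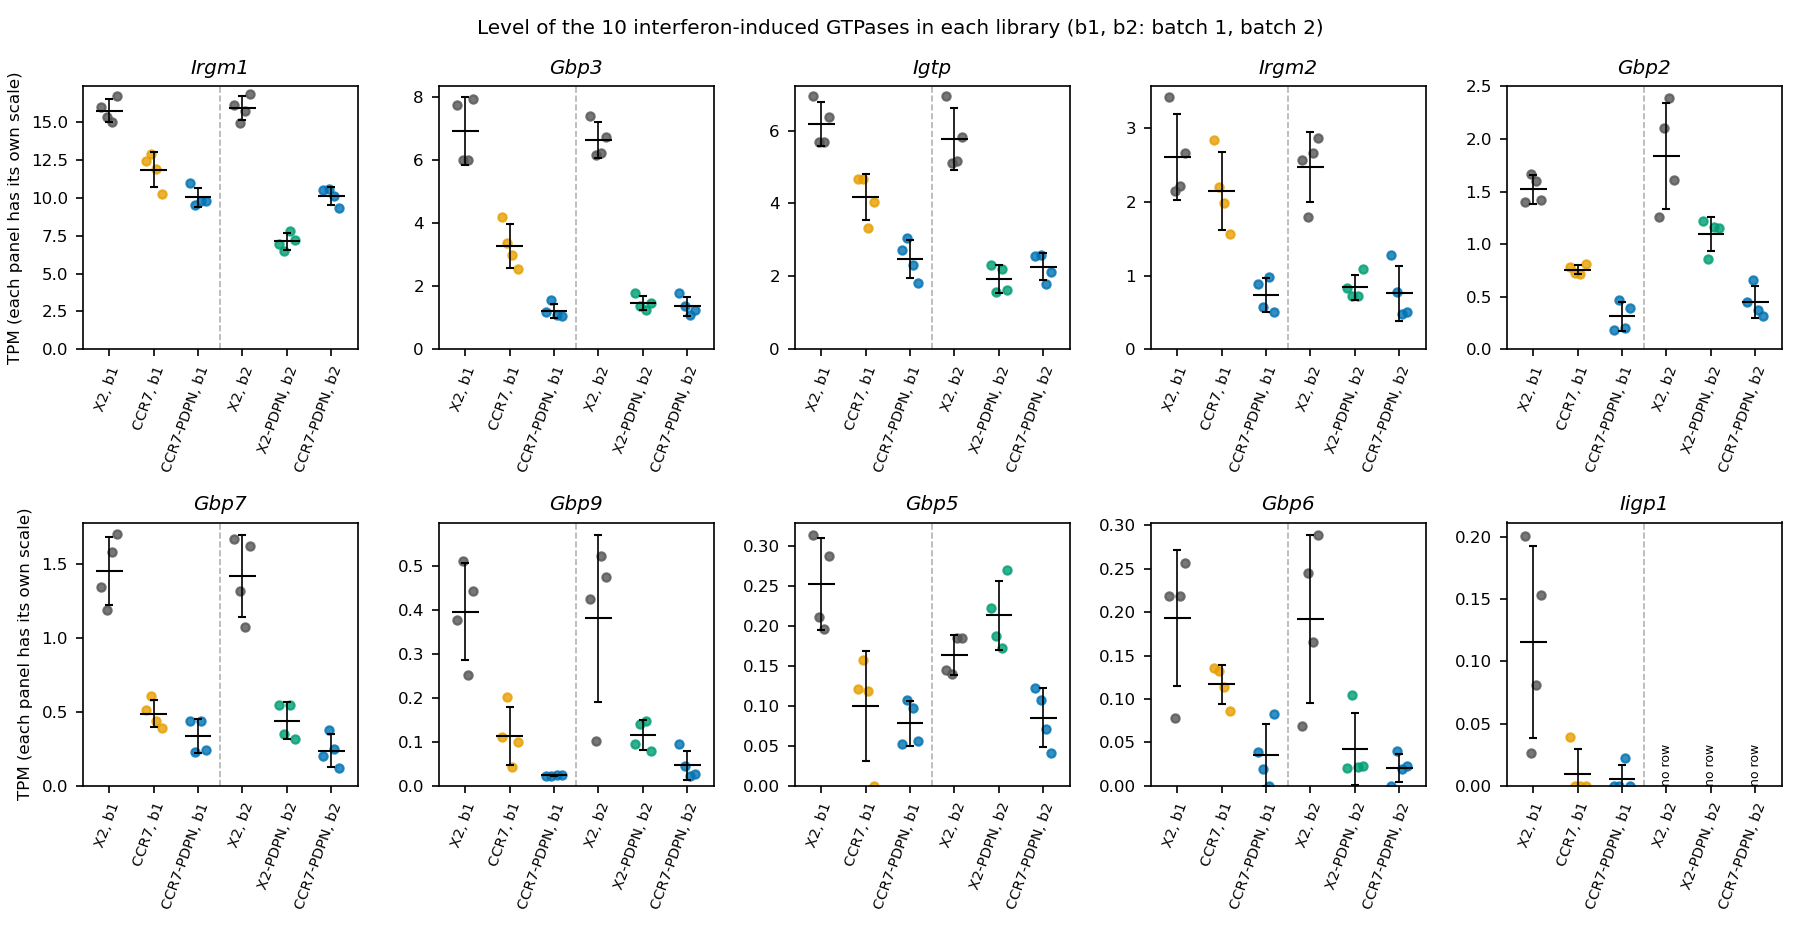
Each point is the level of a member in 1 library in TPM (linear axis from 0, a separate scale for each gene), with the mean and SD of 4 libraries as bars, for X2, CCR7 and CCR7-PDPN of batch 1 (left of the dashed line) and X2, X2-PDPN and CCR7-PDPN of batch 2 (right). Irgm1 is lowest in X2-PDPN at 7.13 TPM, whereas Gbp2 is lowest in CCR7-PDPN at 0.314 and 0.452 TPM.

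Summed over the members, X2 of batch 1 had 35.4 ± 2.96 TPM (SD, n = 4), CCR7 23.1 ± 2.82 and CCR7-PDPN 15.3 ± 1.06. In batch 2, X2 had 34.8 ± 2.22 TPM, X2-PDPN 13.3 ± 1.05 and CCR7-PDPN 15.4 ± 1.66. The make-up of the sum also differed, because Irgm1 gave 44.6% of it in X2 of batch 1, 51.6% in CCR7 and 65.8% in CCR7-PDPN, and 45.8%, 53.7% and 66.2% in X2, X2-PDPN and CCR7-PDPN of batch 2. These are levels in bulk RNA, in which fewer expressing cells and less RNA per cell cannot be told apart.

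Differences were tested within a batch by the quasi-likelihood test of edgeR. P-values were adjusted after Benjamini and Hochberg (BH) over all genes tested. SE is the standard error of a log2 fold change, and a gene was called when its adjusted p was under 0.05 and its absolute log2 fold change above 1. A filter on low counts left 8 members in batch 1 (without Gbp6 and Iigp1) and 6 in batch 2 (Gbp2, Gbp3, Gbp7, Irgm1, Irgm2 and Igtp). Members that pass such a filter through X2 alone could only be seen to fall. Counts of called members are therefore read beside the share of all genes called the same way and not as evidence by themselves.

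CCR7 was compared with X2 to ask what Ccr7 expression without PDPN went with. Among the members tested, the log2 fold changes were -1.002 to -1.77 for the GBP genes and -0.26 to -0.57 for Irgm1, Irgm2 and Igtp. The difference between the families was not tested. Without the filter, Gbp6 came to -0.73 and the IRG gene Iigp1 to -3.14, both on few reads and outside these ranges. The 5 GBP genes tested (Gbp2, Gbp3, Gbp5, Gbp7 and Gbp9) were called lower and no member was called higher, where 3.18% of all 13261 genes tested were called lower and 3.30% higher. At the adjusted p alone, 7 members were lower, against 25.2% of all genes. The median log2 fold change of the 8 members was -1.03, against 0.00332 over all genes.

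Gbp7, a GBP of the chromosome 3 cluster, had 1.34, 1.19, 1.58 and 1.70 TPM in the X2 libraries of batch 1 and 0.514, 0.606, 0.441 and 0.394 TPM in the CCR7 libraries. Every CCR7 library lay below every X2 library, at a log2 fold change of -1.57 (SE 0.21; edgeR BH-adjusted p = 1.55e-06). Gbp3 had 7.77, 6.00, 6.02 and 7.96 TPM in X2 and 4.21, 3.37, 3.00 and 2.56 TPM in CCR7. The groups did not overlap and the log2 fold change was -1.07 (SE 0.14). Gbp2, which coats vacuoles and recruits further GBPs, had 1.40, 1.67, 1.60 and 1.42 TPM in X2 and 0.780, 0.728, 0.716 and 0.812 TPM in CCR7. Again the groups were apart, but its log2 fold change of -1.002 (SE 0.23) lay at the threshold.

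Of the IRG genes, Irgm1, Irgm2 and Igtp were tested in CCR7, and Iigp1 is given below as reads. Irgm1 had 16.0, 15.3, 15.0 and 16.7 TPM in X2 and 12.4, 12.9, 11.9 and 10.3 TPM in CCR7. All CCR7 libraries were lower, by a log2 fold change of -0.40 (SE 0.06; edgeR BH-adjusted p = 2.03e-05). Igtp had 6.95, 5.69, 5.68 and 6.36 TPM in X2 and 4.68, 4.66, 3.34 and 4.04 TPM in CCR7, at a log2 fold change of -0.57 (SE 0.14). Irgm2 had 3.42, 2.15, 2.22 and 2.66 TPM in X2 and 2.85, 2.20, 1.98 and 1.57 TPM in CCR7, so that the groups overlapped. Its log2 fold change of -0.26 (SE 0.19) did not pass the test (edgeR BH-adjusted p = 0.270). It was -0.11 without X2 replicate 1, and -0.44 and past the adjusted p without CCR7 replicate 1 (edgeR BH-adjusted p = 0.0491). The fourth CCR7 library was the shallowest of batch 1 and the lowest of its group in Irgm1, Irgm2, Gbp3 and Gbp7, and it held no read of Gbp5. Without it 3 members were called lower, since the log2 fold changes of Gbp3 (-0.98) and Gbp5 (-0.93) came under the threshold.

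CCR7-PDPN was compared with CCR7 to follow the gain of PDPN in cells that express Ccr7. Here Gbp2, Gbp3, Gbp9 and Irgm2 were called lower and no member higher, where 2.60% of all genes were called lower and 0.664% higher. At the adjusted p alone, 6 members were lower, against 20.7% of all genes. The median log2 fold change was -0.97. Irgm2 fell to 0.887, 0.578, 0.987 and 0.501 TPM. Every CCR7-PDPN library lay below every CCR7 library, at a log2 fold change of -1.54 (SE 0.24; edgeR BH-adjusted p = 2.93e-05).

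Gbp3 fell further to 1.18, 1.56, 1.08 and 1.06 TPM, also without overlap, at a log2 fold change of -1.41 (SE 0.19). Gbp2 came to 0.186, 0.471, 0.207 and 0.392 TPM, at a log2 fold change of -1.22 (SE 0.31). Igtp, with 2.72, 3.05, 2.32 and 1.83 TPM, was lower by a log2 fold change of -0.72 (SE 0.17), which passed the test without reaching the threshold. For Gbp7 (0.437, 0.232, 0.440 and 0.242 TPM) and Irgm1 (11.0, 9.56, 9.79 and 9.80 TPM) the libraries overlapped with CCR7. Gbp7 differed by -0.52 (SE 0.26; edgeR BH-adjusted p = 0.121) and Irgm1 by -0.22 (SE 0.07; edgeR BH-adjusted p = 0.0109) on the log2 scale. The call on Gbp9 rests on few reads and was lost without the second CCR7 library (log2 fold change -1.66; edgeR BH-adjusted p = 0.0803).

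X2-PDPN was compared with X2 in batch 2 to follow PDPN in cells without the Ccr7 cDNA. All 6 members tested were lower at the adjusted p and 5 were called (Gbp3, Gbp7, Irgm1, Irgm2 and Igtp), where 1.55% of the 13314 genes tested were called lower, 3.51% higher and 28.5% lower at the adjusted p alone. The median of the members was -1.57. Irgm1, Irgm2 and Igtp were all called lower here.

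Irgm1 had 16.1, 14.9, 15.7 and 16.9 TPM in X2 of batch 2 and 6.98, 6.50, 7.83 and 7.19 TPM in X2-PDPN. The groups were far apart, at a log2 fold change of -1.17 (SE 0.06; edgeR BH-adjusted p = 3.62e-21). Igtp went from 6.94, 5.11, 5.17 and 5.83 TPM to 2.32, 1.59, 2.21 and 1.64 TPM, at a log2 fold change of -1.58 (SE 0.17). Irgm2 went from 2.57, 1.79, 2.66 and 2.86 TPM to 0.835, 0.729, 0.725 and 1.08 TPM, at a log2 fold change of -1.57 (SE 0.21). The groups did not overlap in either gene.

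Of the GBP genes, Gbp3 showed the largest difference in X2-PDPN, from 7.42, 6.16, 6.25 and 6.73 TPM to 1.78, 1.36, 1.25 and 1.48 TPM, at a log2 fold change of -2.18 (SE 0.14). Gbp7 went from 1.67, 1.32, 1.07 and 1.62 TPM to 0.549, 0.350, 0.545 and 0.319 TPM, at a log2 fold change of -1.69 (SE 0.22). Both were separated from X2 in every library. Gbp2, with 1.26, 2.10, 2.39 and 1.61 TPM in X2 and 1.23, 0.863, 1.17 and 1.15 TPM in X2-PDPN, was barely apart from X2 and lower by less, at -0.76 (SE 0.23; edgeR BH-adjusted p = 0.00406), and was not called.

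CCR7-PDPN was compared with X2 in both batches. In batch 1, 7 of the 8 members tested were called lower (5.36% of all genes were called lower and 4.09% higher), with a median of -1.95, and in batch 2, 5 of 6 were called lower (5.67% lower and 3.96% higher), with a median of -1.86. All were lower at the adjusted p alone, as were 30.6% of all genes in batch 1 and 32.8% in batch 2. The exception in each batch was Irgm1. It was lower by the same -0.63 on the log2 scale (SE 0.07 and 0.06 in batches 1 and 2), past the adjusted p but not the fold threshold. The batches were separate sets of libraries, and their values for the other members were close: -2.22 and -1.99 for Gbp2, -2.48 and -2.28 for Gbp3, -2.09 and -2.50 for Gbp7, -1.80 and -1.73 for Irgm2, and -1.29 and -1.33 for Igtp.

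The PDPN-positive derivatives were set against each other in batch 2. Only Gbp2 was called lower in CCR7-PDPN than in X2-PDPN and no member was called higher, where 6.40% of all genes were called lower and 2.76% higher. At the adjusted p alone 2 members were lower and 1 higher, against 32.0% and 31.2% of all genes. Gbp2 had 0.452, 0.661, 0.374 and 0.321 TPM in CCR7-PDPN, all below X2-PDPN, at a log2 fold change of -1.22 (SE 0.31; edgeR BH-adjusted p = 6.24e-04). Irgm1 went the other way, with 10.5, 10.6, 10.1 and 9.34 TPM in CCR7-PDPN. Every one of these libraries was above every X2-PDPN library, at a log2 fold change of 0.54 (SE 0.06; edgeR BH-adjusted p = 5.79e-10).

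Gbp7 (0.203, 0.381, 0.251 and 0.120 TPM in CCR7-PDPN) was lower than in X2-PDPN by -0.81 (SE 0.31; edgeR BH-adjusted p = 0.0220) on the log2 scale. It no longer passed without X2-PDPN replicate 1 or 3 or CCR7-PDPN replicate 4 (smallest difference -0.60; edgeR BH-adjusted p up to 0.104). The libraries overlapped for Gbp3 (1.79, 1.38, 1.08 and 1.24 TPM), Irgm2 (1.28, 0.772, 0.478 and 0.511 TPM) and Igtp (2.57, 2.58, 1.80 and 2.13 TPM), whose log2 fold changes were -0.09 (SE 0.19), -0.16 (SE 0.27) and 0.25 (SE 0.20). The count of called members depended on single libraries. It was 2 without X2 replicate 1 or 2, without X2-PDPN replicate 3 or 4, or without CCR7-PDPN replicate 2 or 4, and 3 without CCR7-PDPN replicate 1.

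**Figure D2:**
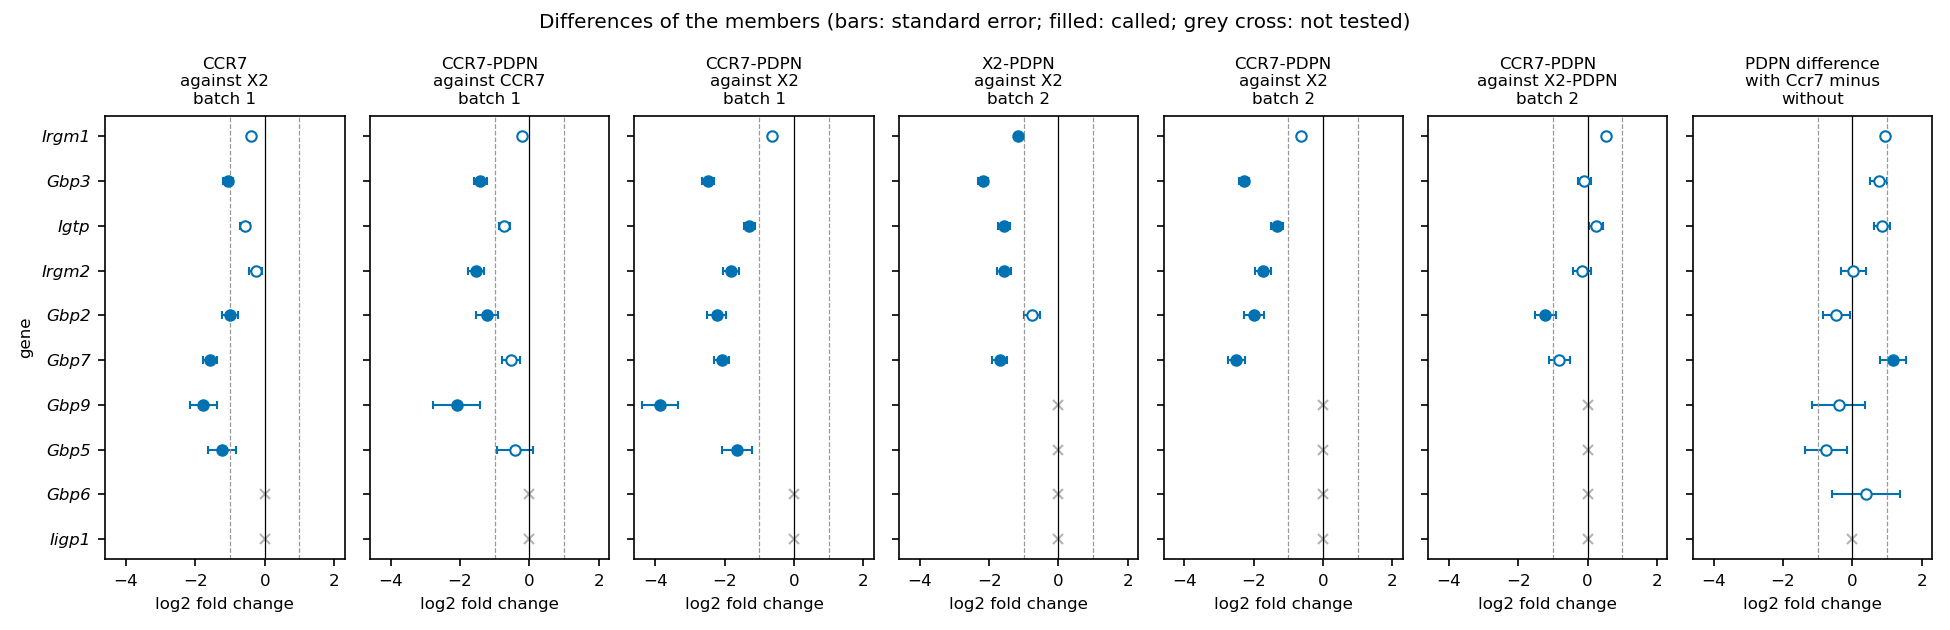
Log2 fold change of each member (horizontal axis) with its SE in the 6 comparisons within a batch and, at the right, the PDPN difference with Ccr7 minus that without. Filled points were called, open points were not, grey crosses mark members not tested, and dashed lines mark a log2 fold change of 1 in either direction. Irgm1 is the only member called in X2-PDPN (-1.17) and not in CCR7-PDPN (-0.63) against X2.

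Whether the PDPN difference depended on Ccr7 was tested over all 24 libraries, as CCR7-PDPN minus CCR7 in batch 1 less X2-PDPN minus X2 in batch 2. Of 9 members tested, 4 had a positive difference at the adjusted p, that is, a smaller PDPN-linked fall in cells with Ccr7, and 1 of them (Gbp7) was also past the fold threshold, where 0.964% of the 13690 genes tested were called higher, 4.48% lower and 20.3% higher at the adjusted p alone. Irgm1 had the smallest error, with a difference of 0.95 (SE 0.09; edgeR BH-adjusted p = 7.62e-11). The values were 0.86 (SE 0.24) for Igtp, 0.77 (SE 0.25) for Gbp3 and 1.17 (SE 0.37; edgeR BH-adjusted p = 0.00975) for Gbp7. Computed instead from the Ccr7 differences (CCR7-PDPN minus X2-PDPN in batch 2 less CCR7 minus X2 in batch 1), Gbp7 came to 0.76 (edgeR BH-adjusted p = 0.131) and no member was called, while Irgm1 (0.94), Gbp3 (0.97) and Igtp (0.82) stayed past the adjusted p. Irgm2 (0.04, SE 0.36) and Gbp2 (-0.45, SE 0.40) did not pass the test. Ccr7 without PDPN and PDPN without Ccr7 were sequenced in different batches, so a batch effect on these differences cannot be told apart from the interaction.

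The members under 1 TPM were followed as reads in each library. Gbp9 had 15, 17, 11 and 18 reads in X2 of batch 1, 5, 8, 2 and 3 in CCR7, and 1 in each of the 4 CCR7-PDPN libraries. These groups did not overlap, and scaled to depth X2 held 16.5 times the reads of CCR7-PDPN (exact 95% interval for counting error 6.14 to 62.6). In batch 2 it had 16, 4, 22 and 20 reads in X2, 4, 7, 6 and 3 in X2-PDPN and 3, 2, 1 and 1 in CCR7-PDPN.

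Iigp1 (ENSMUSG00000054072, chr18:60376027-60392634, plus strand), the effector IRG, had 9, 1, 4 and 7 reads in X2 of batch 1, 2 reads in 1 CCR7 library and 1 read in 1 CCR7-PDPN library. The ratio of X2 to CCR7 was 10.9 (interval 2.66 to 95.8) and that of X2 to CCR7-PDPN 22.8 (interval 3.66 to 941). Gbp6 had 3 to 12 reads per X2 library of batch 1 and 0 to 4 per CCR7-PDPN library, and in batch 2 3 to 14 in X2, 1 to 6 in X2-PDPN and 0 to 2 in CCR7-PDPN. Intervals cover counting error only.

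Gbp5, which promotes inflammasome assembly, was the member that did not follow the others in X2-PDPN. It had 7, 7, 10 and 10 reads in X2 of batch 2 and 12, 12, 9 and 13 in X2-PDPN, so that the scaled level in X2 was 0.789 times that in X2-PDPN (interval 0.491 to 1.26). In CCR7-PDPN of batch 2 it had 5, 6, 4 and 2 reads. In batch 1 it fell from 16, 9, 11 and 15 reads in X2 to 7, 8, 7 and 0 in CCR7 and 3, 6, 5 and 3 in CCR7-PDPN, and was called lower in both against X2 (-1.23, SE 0.42, and -1.64, SE 0.44). Its call in CCR7 was lost without X2 replicate 1 (edgeR BH-adjusted p = 0.0575).

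Sequence shared with other genes bears on a few of these values. Of the distinct 75-base words in Gbp6 transcripts, 67.3% also occurred in transcripts of other genes, most of them in Gm43302 and Gbp10, so the Gbp6 values are uncertain. The share was 11.3% for Gbp7 (Gm43802 and Gbp3), 7.80% for Igtp and 4.78% for Irgm2 (mostly shared with each other), 3.61% for Gbp9 and 0% for Irgm1. It was 2.06% or less for Gbp2, Gbp3 and Gbp5.

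In batch 2, other genes near the members tested did not share the falls as a group. Within 5 Mb of the chromosome 3 cluster, the median log2 fold change of the 40 other genes tested was -0.04 in X2-PDPN and -0.18 in CCR7-PDPN against X2 of batch 2. Around Irgm1 it was -0.02 and 0.03 over 66 genes, none of which was lower than Irgm1 in X2-PDPN. Around Igtp and Irgm2 it was 0.02 and 0.04 over 121 genes. Around the GBP genes of chromosome 5, where no member was tested in batch 2, it was -0.02 and -0.11 over 74 genes. Around Iigp1, which had no row in batch 2, it was -0.24 and -0.14 over 44 genes. In CCR7-PDPN against X2, 4 neighbours of the chromosome 3 cluster and 7 of the chromosome 5 genes were called lower. Around each of Irgm1, the Igtp and Irgm2 pair, and Iigp1, 2 were called lower. Of all genes, 5.67% were called lower. Within 0.5 Mb of a member locus, genes outside the 2 families called in 4 or more of the within-batch comparisons were Kyat3 and 4930438A08Rik, which were picked out after their values were seen. Kyat3, an aminotransferase gene next to Gbp2 (chr3:142701051-142746870), stood at 4.38 ± 0.186 TPM in X2, while X2-PDPN had 2.69 ± 0.133 and CCR7-PDPN 0.619 ± 0.162 (SD, n = 4), with log2 fold changes of -0.70 (SE 0.08) and -2.77 (SE 0.11). 4930438A08Rik near Irgm2 (chr11:58274799-58294289) differed by -2.55 (SE 0.38) in X2-PDPN and -3.39 (SE 0.44) in CCR7-PDPN.

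**Figure D3:**
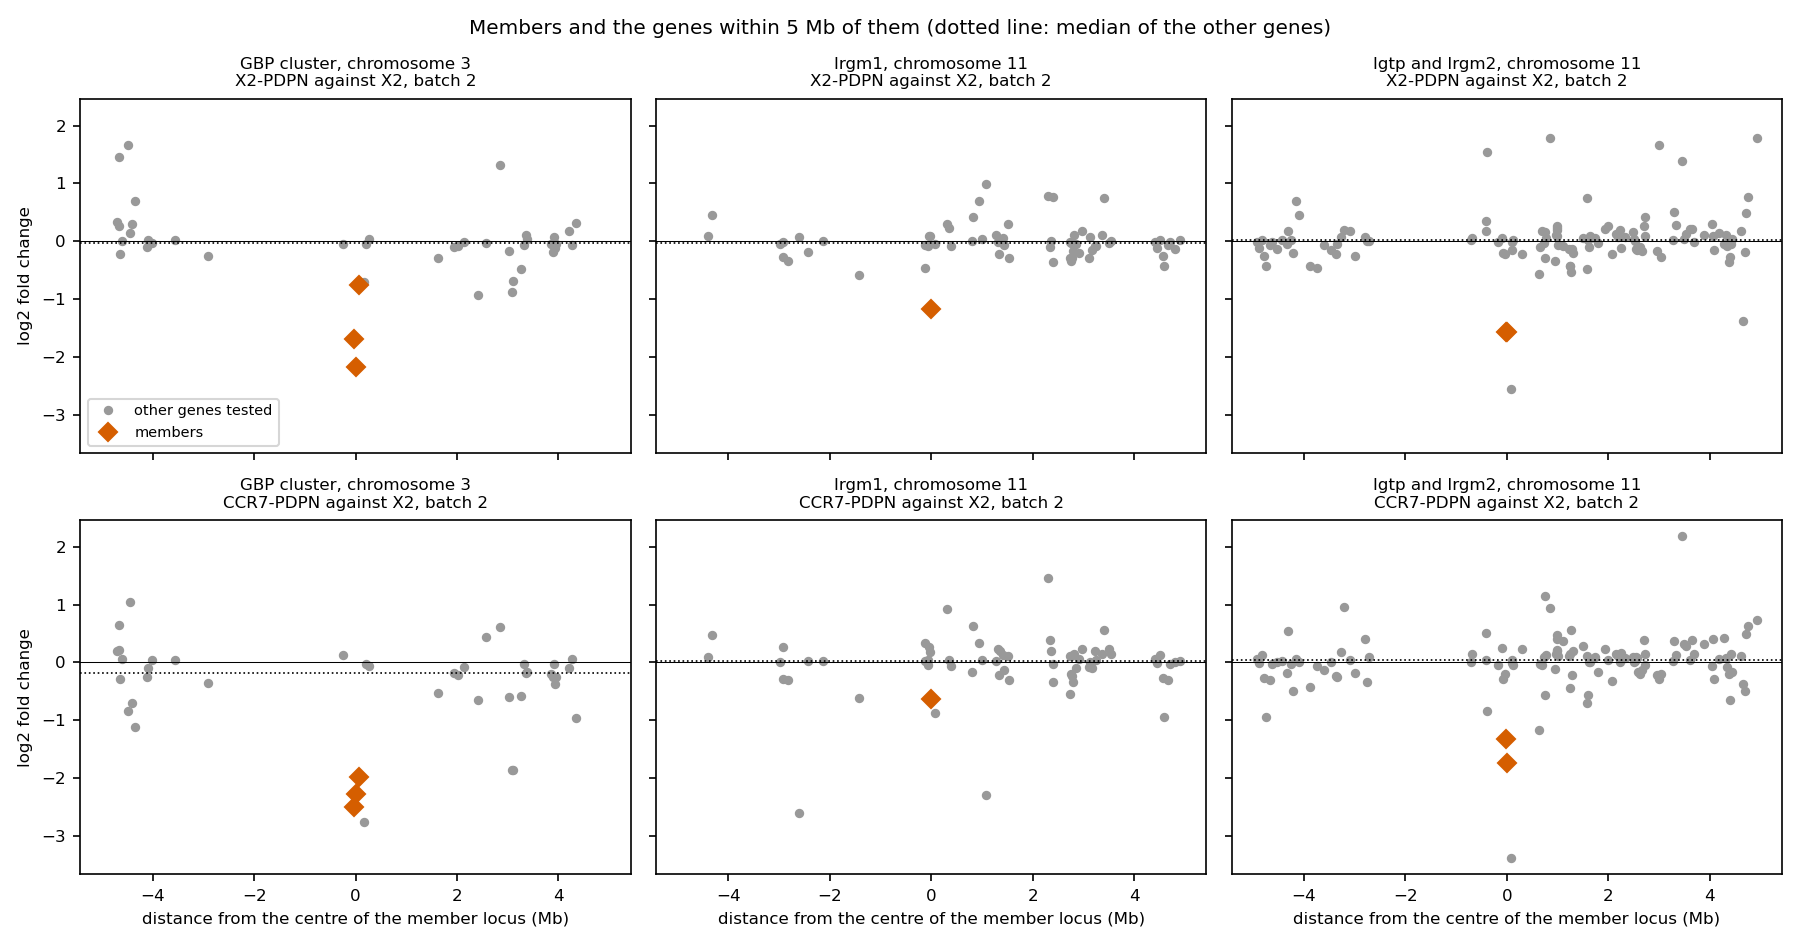
Log2 fold change in batch 2 of the members (diamonds) and of the other genes tested within 5 Mb (grey points) against distance in Mb from the centre of the member locus, for X2-PDPN (top) and CCR7-PDPN (bottom) against X2. The dotted line is the median of the other genes, which stays between -0.18 and 0.04 in the 6 panels while the members lie below it.

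Of 20 further interferon-induced GTPase genes on a list, 17 were too low to test, with at most 5 reads in any library. They included Gbp4, Gbp8, Gbp10, Tgtp1 and Tgtp2. Of Mx1, Mx2 and Irgq, Mx2, a dynamin-like antiviral GTPase, was called lower in CCR7-PDPN against X2, at -1.10 (SE 0.32) in batch 1 and -1.04 (SE 0.31) in batch 2. Both values lay just past the fold threshold. Mx2 rested on 15 to 25 reads per X2 library and 3 to 14 per CCR7-PDPN library in batch 1. In batch 2 it had 17 to 23 and 4 to 14. The Mx2 level was 0.708 ± 0.132 TPM in X2 and 0.331 ± 0.129 in CCR7-PDPN of batch 2 (SD, n = 4).

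The genes that carry the interferon signal to GBPs and IRGs moved unevenly. On a list of 20 genes of interferon gamma signalling, of which 17 were tested in batch 1 and 18 in batch 2, the median log2 fold change lay between -0.08 and 0.04 in the comparisons with X2. In CCR7 against X2, 1 gene was called lower and none higher, where 3.18% of all genes were called lower and 3.30% higher. Irf9, an interferon regulatory factor, was the gene called lower in every derivative. Its level was 31.5 ± 2.12 TPM in X2 of batch 1, 14.2 ± 1.23 in CCR7 and 9.01 ± 0.835 in CCR7-PDPN, and 31.5 ± 2.71, 11.9 ± 1.05 and 8.49 ± 0.860 in X2, X2-PDPN and CCR7-PDPN of batch 2 (SD, n = 4). The log2 fold changes of Irf9 against X2 were -1.14 in CCR7, -1.42 in X2-PDPN, and -1.78 and -1.87 in CCR7-PDPN.

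In X2-PDPN against X2, 2 genes of that list were called lower (Irf9 and Nlrc5) and 3 higher. Of all genes, 1.55% were called lower and 3.51% higher. Nlrc5, the activator of MHC class I genes, had a log2 fold change of -1.10 (SE 0.05). The 3 higher genes were the chemokine gene Cxcl10 at 1.39 (SE 0.11), the transcription factor gene Batf2 at 1.99 (SE 0.33) and Ciita, the activator of MHC class II genes, at 1.74 (SE 0.41). Cxcl10 had 10.8 ± 0.895 TPM in X2-PDPN against 4.11 ± 0.294 in X2 and 2.42 ± 0.371 in CCR7-PDPN of batch 2 (SD, n = 4). Batf2 rested on 4 to 10 reads per library in X2 and 15 to 38 in X2-PDPN. Ciita rested on 2 to 9 reads in X2 and 14 to 19 in X2-PDPN. Cxcl10, Batf2 and Ciita were the list's called genes between CCR7-PDPN and X2-PDPN as well, all lower in CCR7-PDPN (-2.14, -1.14 and -1.78). Between these derivatives, 6.40% of all genes were called lower and 2.76% higher. Genes of 1 list thus stood on both sides of X2 in X2-PDPN, with the GBPs and IRGs tested on the lower side.

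A list of 22 genes that act with GBPs and IRGs at membranes and in the inflammasome, 20 of them tested, contained the largest differences. Casp1 and Casp4, the caspases of the canonical and non-canonical inflammasome, were called lower in CCR7 (-2.38, SE 0.18, and -1.17, SE 0.09) and in CCR7-PDPN of batch 1 (-4.66, SE 0.25, and -3.19, SE 0.11). Casp4 was at 9.98 ± 0.670 TPM in X2, where CCR7 had 4.46 ± 0.377 and CCR7-PDPN 1.07 ± 0.136 (SD, n = 4). In X2-PDPN neither was called, and Casp1 had 6.13 ± 0.605 TPM against 3.58 ± 0.655 TPM in X2 of batch 2 (SD, n = 4). The interaction was -3.05 (SE 0.38) for Casp1 and -1.72 (SE 0.16) for Casp4, opposite in sign to that of Irgm1, Igtp, Gbp3 and Gbp7. Casp4 lies on chromosome 9. The genes around Casp1 and Casp4 were not examined here, and a shift of their chromosome region was not tested.

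Zbp1, a sensor of Z-form nucleic acids, was called lower in all 4 comparisons with X2, at -2.09 (CCR7), -1.05 (X2-PDPN), and -3.92 and -3.11 (CCR7-PDPN). Trim21, a ubiquitin ligase that binds antibodies in the cytosol, was called lower in X2-PDPN (-1.01) and in CCR7-PDPN of batch 1 (-1.04). The ATG8 genes Gabarapl2 and Map1lc3b, whose products guide GBPs and IRGs on membranes, were called higher in CCR7-PDPN of batch 1 (1.12 and 1.10) and batch 2 (1.17 and 1.07) against X2. Both lie on chromosome 8. They were also higher at the adjusted p in CCR7 (0.89, SE 0.06, and 0.9997, SE 0.03), under the fold threshold. Their values in X2-PDPN were -0.31 (SE 0.05) and -0.04 (SE 0.03). Levels on some chromosomes moved in blocks in these derivatives, and the genes around Gabarapl2 and Map1lc3b were not examined here. Of the 20 genes tested, 4 were called lower and 2 higher in CCR7-PDPN against X2 of batch 1, with a median of -0.19. Of all genes, 5.36% were called lower and 4.09% higher there. None of the 6 prenylation enzyme genes was called in any of the 7 comparisons in edgeR's quasi-likelihood test. Of all genes, 1.55% to 6.40% were called lower and 0.664% to 4.09% higher, so none of 6 says little about them. At the adjusted p alone, 3 of them were lower and 1 higher in CCR7-PDPN against X2 of batch 1. Of all 13261 genes, 30.6% were lower and 4018 genes higher in the same way.

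**Figure D4:**
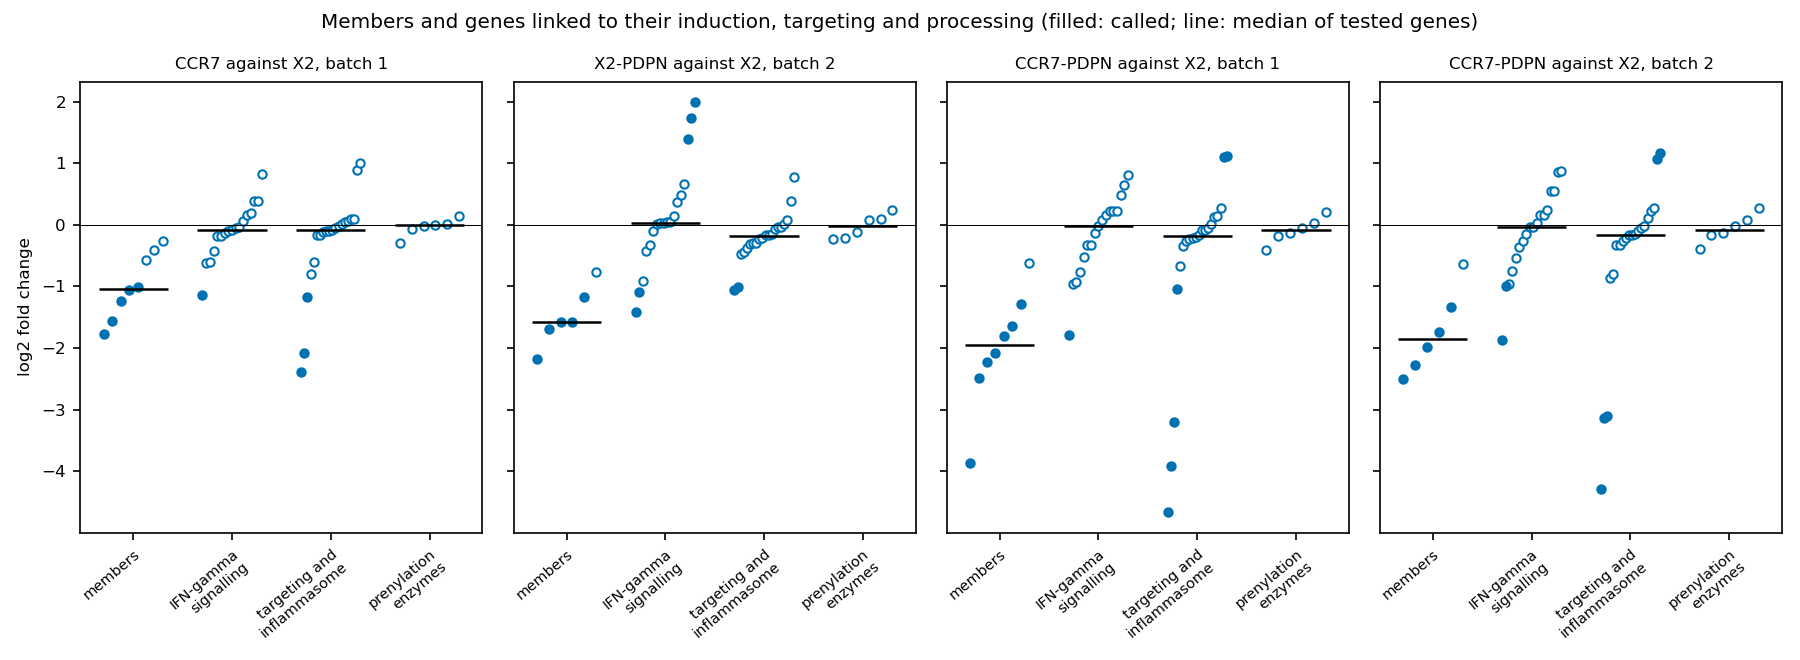
Log2 fold change against X2 (vertical axis) of each gene tested among the members and in the lists of interferon gamma signalling, membrane targeting and inflammasome partners, and prenylation enzymes, in CCR7, X2-PDPN and CCR7-PDPN (both batches). Filled points were called and the line is the median, which lies between -1.03 and -1.95 for the members and between -0.19 and 0.04 for the other lists.

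The members were also compared with one another over the libraries. The 6 members tested in both batches were expressed as log2 CPM (counts scaled to library size) less the X2 mean of their batch, and each was set against the mean of the other 5 over the 24 libraries, which share their X2 reference. Pearson's r was 0.98 for Gbp3, 0.93 for Igtp, 0.89 for Gbp7 and Irgm2, 0.80 for Irgm1 and 0.77 for Gbp2. Irgm1 and Gbp2 thus had the lowest correlations with the rest. Gbp2 had only 4 to 49 reads per library, so counting noise and a different pattern cannot be told apart for it.

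Of 10530 other genes whose log2 CPM averaged 1 or more, the 8 whose pattern was most like the mean of the 6 members were Usp18 (r = 0.98), Oasl2 (0.98), Bst2 (0.98), Irf7 (0.98), Ifi44 (0.98), Irf9 (0.98), Isg15 (0.98) and Adar (0.97). Usp18 removes ISG15 from proteins, Oasl2 belongs to the oligoadenylate synthetase family, Bst2 encodes tetherin and Irf7 a regulatory factor of the type I interferon response. Usp18 had 22.9 ± 2.58 TPM in X2 of batch 1, 7.17 ± 1.42 in CCR7 and 1.43 ± 0.734 in CCR7-PDPN, and 2.504 ± 0.361 in X2-PDPN of batch 2 (SD, n = 4). Bst2 had 1040 ± 40.2 TPM in X2 of batch 1, 708 ± 49.4 in CCR7 and 395 ± 27.6 in CCR7-PDPN, and 470 ± 27.9 in X2-PDPN of batch 2 (SD, n = 4).

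Markers of other cell types were checked as lists. Of 6 leukocyte markers none reached 1 TPM in a group, and their summed level was 0.181 to 0.570 TPM in batch 1 (lowest in CCR7-PDPN, highest in X2, as for the members), with no read of Cd3e. In batch 2, 1 of the 6 was counted, where X2 had 0.432 TPM, X2-PDPN 0.297 and CCR7-PDPN 0.118, and the part of such reads in the member values was not tested. None of 5 endothelial markers reached 1 TPM. Of 6 epithelial markers 1 did (Krt8, with Epcam and Cdh1 below 1 TPM), so that the labelled carcinoma line was recognised by Krt8 alone. Of 5 fibroblast markers, Pdgfra (58.4 ± 0.876 TPM in X2 of batch 1, SD, n = 4) and Pdgfrb (46.6 ± 0.595 TPM) did, above every member, and the list summed to 98.6 to 116 TPM over the 6 groups, while Lum and Thy1 had no read in batch 1.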

How the data were processed

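Polyadenylated RNA was sequenced by the authors from stranded TruSeq libraries (single-end, 75 bases) and mapped to GRCm38/mm10, the builds named in the submitters' processing notes. The batch 1 table has the layout of featureCounts output. The aligner and the handling of strand and of reads with several matches are not given in the sources used here. The authors deposited raw counts per gene as 1 table for each batch, with gene lengths. Every gene of the batch 2 table had at least 10 reads in a library. Members and gene lists were chosen with earlier results of these data known. TPM (scaled for gene length and library total) and CPM (scaled for library total) were computed here from the counts within each table, so that TPM of batch 2 are scaled over the genes of its own table. Counts were tested with edgeR 4.0.16 in R 4.3.3 (TMM, filterByExpr, robust quasi-likelihood fit of the 12 libraries of a batch, or of all 24 for the interaction), with DESeq2 1.42.0 as an alternative and Benjamini-Hochberg adjustment. A standard error was taken as the size of the fold change on the log2 scale divided by the root of the F statistic. The fits were checked on simulated counts, in which 200 of 200 genes changed by a log2 value of 2 were recovered in CCR7 against X2. The changed genes were drawn from those with higher mean counts. Recovery at the low counts and smaller changes of several members was not checked. The rule for named genes took all members, at most 4 called genes for a list and comparison, and the 8 genes most like the members. Replicate pairs differed by more than counting noise (chi-square per degree of freedom 2.20 to 26.4 over 36 pairs). Alternatives were other scaling factors, DESeq2, other filters, fits of 2 groups, a replicate block, no fold threshold and leaving out each library. Proteins of the members were not compared here. The result of 1 gene of the interferon gamma list is not reported here.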

Additional observations from a re-analysis of the deposited data

Results flagged for a closer look

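Each member was checked in each group of 4 libraries for 1 library far from the others, 57 checks in all. The cutoff picks about 1 in 20 by chance where values are normally spread. That rate does not hold for a few reads with ties between libraries. The 3 found were at single-digit read counts. Gbp6 stood at 0.168 CPM in X2-PDPN replicate 2 of batch 2, from 6 reads against 1 in each of the others. Iigp1 stood at 0.0625 CPM in CCR7 replicate 1 and at 0.0349 CPM in CCR7-PDPN replicate 3 of batch 1, the only libraries of their groups with a read of it.

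The PDPN difference was tested to differ between cells with and without Ccr7 for 4 members, by 1.17 for Gbp7, 0.77 for Gbp3, 0.95 for Irgm1 and 0.86 for Igtp on the log2 scale. Leaving out each of the 24 libraries in turn moved these to 1.01 to 1.32, 0.62 to 0.92, 0.89 to 0.99 and 0.74 to 0.97, and Gbp3 came short of the threshold without CCR7-PDPN replicate 2 of batch 1 (edgeR BH-adjusted p = 0.0575). Computed from the Ccr7 differences, Gbp7 came to 0.76 and did not pass (edgeR BH-adjusted p = 0.131), while Gbp3 (0.97), Irgm1 (0.94) and Igtp (0.82) did. A batch effect cannot be told apart from the interaction.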

How the results depend on the processing

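No member called in a comparison within a batch changed direction under any alternative. At 50 counts in at least 4 libraries, 1, 2 and 3 members were called lower in CCR7 against X2, CCR7-PDPN against CCR7 and CCR7-PDPN against X2 of batch 1, 3 in CCR7-PDPN against X2 of batch 2 and 0 in CCR7-PDPN against X2-PDPN, since fewer members are then tested. The genes called fell to 435, 210, 719, 334, 722 and 679 (CCR7 against X2, CCR7-PDPN against CCR7 and against X2 in batch 1, then X2-PDPN against X2, CCR7-PDPN against X2 and against X2-PDPN in batch 2) and 380 in the interaction. Without the fold threshold the counts, in that order, were 6534, 5513, 8071, 7560, 8626 and 8411, with 5585 in the interaction, and CCR7-PDPN against X2-PDPN had 1 member higher and 2 lower, the interaction 4. Without a filter 1891 genes were called in CCR7-PDPN against X2 of batch 1, and 2 members in CCR7-PDPN against X2-PDPN (Gbp2 and Gbp5). From the Ccr7 differences 0 members were called in the interaction, and its sign turned for Gbp6 (-0.22, adjusted p = 0.864) and Gbp9 (0.45, adjusted p = 0.738, edgeR's quasi-likelihood test).

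Leaving out each library in turn gave 3 to 5 members called lower in CCR7 against X2, 3 to 5 in CCR7-PDPN against CCR7, 7 to 8 and 5 to 7 in CCR7-PDPN against X2, 5 to 6 in X2-PDPN against X2 and 1 to 3 in CCR7-PDPN against X2-PDPN. Signs turned only where the test had not been passed: in CCR7-PDPN against X2-PDPN for Gbp3 (-0.22 to 0.019) and Irgm2 (-0.48 to 0.022), and in the interaction for Gbp6 (-0.35 to 1.39), Gbp9 (-0.71 to 0.031) and Irgm2 (-0.13 to 0.20). The log2 fold change of Gbp2 in CCR7 against X2 was -0.96 to -1.04 and came under the threshold without X2 replicate 2 or 3 or CCR7 replicate 2 or 3, that of Gbp3 without X2 replicate 4 (-0.9957) or CCR7 replicate 4. Replicate numbers were not tied by the labels, and deviations of same-numbered samples correlated over 0.1 in 1 of 12 pairs in batch 1 and 2 of 12 in batch 2, so pairing was not used. With the replicate number as a block, Gbp2 came to -0.9998, just under the threshold, and no other call on a member changed. Counting error limits Gbp2, at 4 to 49 reads per library, and Gbp5, Gbp6, Gbp9 and Iigp1, at 0 to 22.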

Other observations

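Irf8, another interferon regulatory factor of the interferon gamma list, ran against the members and was picked out after its values were seen. Irf8 lies on chromosome 8, as do Gabarapl2 and Map1lc3b, which were higher with Ccr7 and not in X2-PDPN. The genes around Irf8 were not examined here, and a shift of its chromosome region was not tested. Its level rose from 20.6 ± 1.06 TPM in X2 of batch 1 to 26.9 ± 1.80 in CCR7 and 35.6 ± 2.11 in CCR7-PDPN, and from 19.99 ± 1.44 TPM in X2 of batch 2 to 31.7 ± 0.343 in X2-PDPN and 36.1 ± 2.01 in CCR7-PDPN (SD, n = 4). The log2 fold changes against X2 were 0.38, 0.81, 0.66 and 0.87, each past the adjusted p and under the fold threshold in edgeR's quasi-likelihood test. Of 10530 genes it ranked 10529 by likeness to the mean of the members (Pearson's r = -0.97 over 24 libraries that share their X2 reference). Irf1, the factor most closely tied to GBP induction, differed little, with 13.6 ± 0.790 TPM in X2 of batch 1, 13.2 ± 0.801 in CCR7 and 14.1 ± 0.391 in CCR7-PDPN (SD, n = 4).

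Near the GBP genes of chromosome 5, Lrrc8c, a subunit gene of volume-regulated anion channels, was lower in both derivatives with Ccr7 and not in X2-PDPN. It was picked out after its values were seen. It had log2 fold changes of -0.68 (standard error 0.05) in CCR7, -1.42 (standard error 0.05) and -1.38 (standard error 0.05) in CCR7-PDPN, and -0.07 (standard error 0.04; edgeR BH-adjusted p = 0.166) in X2-PDPN against X2. Lrrc8c was also lower in CCR7-PDPN than in CCR7, by -0.73 (standard error 0.05).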
